A study of Mus musculus with 2 samples.

Results

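The genes described here encode the enzymes that attach glutathione, glucuronic acid or sulfate to drugs, hormones and metabolites: the glutathione S-transferases (GST), the UDP-glucuronosyltransferases (UGT) and the cytosolic sulfotransferases (SULT). Members were taken by name, as genes whose symbols start with Gsta, Gstm, Gstp, Gstt, Gstk, Gsto, Mgst, Ugt1, Ugt2, Ugt3 or Sult and a digit, on array probes annotated to exactly 1 gene. This gave 47 of the 19938 genes named in that way, namely 21 GST, 10 UGT and 16 SULT genes. Liver of male mice aged 10 to 11 weeks on a Hybrid Black Swiss/129-SV/J background was compared between a pool labelled FHL2-/- and a wild-type pool, which share sex, age, lobe and background. Fhl2 encodes a LIM-domain adaptor protein. For each pool, left-lobe RNA from 3 mice was mixed and hybridised to 1 Affymetrix array. There are therefore no replicates, no test and no p-value, and the spread between mice cannot be seen.

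Conjugation makes fat-soluble compounds soluble in water, so that they can leave the hepatocyte through export pumps into bile or blood. GST enzymes use glutathione and also reduce peroxides, UGT enzymes sit in the endoplasmic reticulum and use UDP-glucuronate, and SULT enzymes in the cytosol use the sulfate donor PAPS. Many of these genes are known to be induced by PXR and CAR, which are nuclear receptors, by the oxidative stress factor NRF2 and by the Ah receptor, and several differ between male and female mouse liver.

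A level here is the deposited log2 value of a gene's probe, and a difference is the level in the knockout-labelled pool minus the level in the wild-type pool, so 0.26 is 1.2-fold and 0.58 is 1.5-fold. Levels depend on each probe's own brightness and give no ranking of genes by abundance. The median over all probes was 5.71 in the knockout-labelled and 5.76 in the wild-type pool. The Fhl2 probe read 5.33 in the knockout-labelled and 5.30 in the wild-type pool, and the deleted exons are not named in the labels, so it checks nothing and the pool is called by its label. The hepatocyte markers Alb and Apoa1 read 13.67 and 13.13 in the knockout-labelled pool and 13.74 and 13.18 in the wild-type pool, and 9 of 9 measured hepatocyte markers passed the level filter.

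Of the 47 members, 34 passed a filter that keeps genes with a mean level of at least 5.44, the 40th percentile of probes with 1 gene. They were 18 of 21 GST, 10 of 10 UGT and 6 of 16 SULT genes, and 0 of them had a pool below that level. None of the 34 reached 1.5-fold, with 0 higher and 0 lower, where 0.621% of the 11924 genes past the filter were at least 1.5-fold higher and 0.335% at least 1.5-fold lower. With no filter the count was also 0 of 47 in either direction, against 0.767% higher and 0.667% lower of all genes. At least 1.2-fold higher were 5 of the 34 members, namely Sult5a1, Gstm6, Sult1d1, Gstm5 and Gstt3, where 8.66% of all genes were. At least 1.2-fold lower were 2, Ugt2b38 and Ugt2b37, where 6.16% of all genes were. Of the 34 members, 24 (70.6%) lay above 0, against 59.5% of all genes past the filter. At a common array median the count was 26 of 34 against 69.2% of all genes, and with the trend of differences on level removed it was 19 of 34 against 50.9%. At 1.2-fold those scalings gave 6 members higher and 2 lower at a common median, against 12.7% and 4.32% of all genes, and 3 higher and 2 lower without the trend, against 6.52% and 7.11%. Their median difference was 0.07, against 0.04 for all genes past the filter, and 20 of them (58.8%) lay within 0.143 of 0, against 59.7% of all genes. That 0.143 is the SD between several probes of a gene on these arrays, over 660 genes, and it covers neither animals nor hybridisations.

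**Figure D1:**
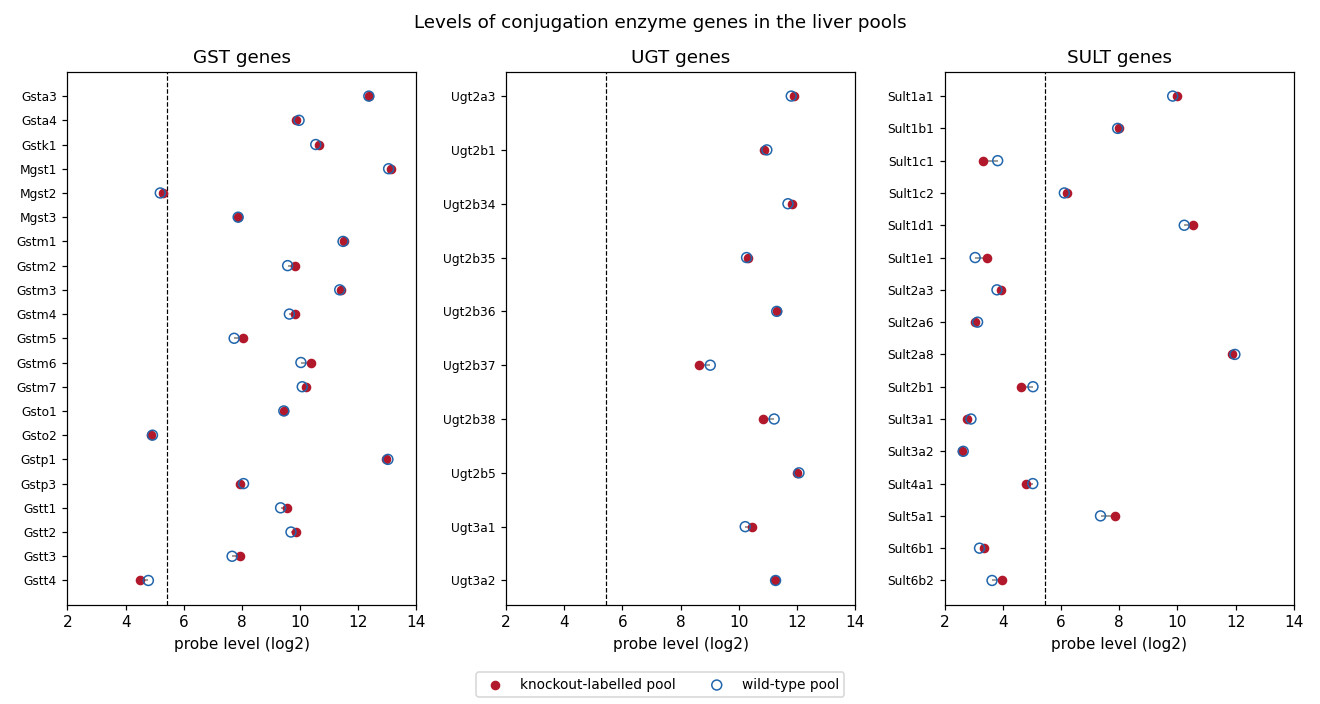
Log2 level of each of the 47 members in the knockout-labelled pool (filled) and the wild-type pool (open), 1 array each with no error bars; the dashed line is the level filter at 5.44. All 10 UGT genes lie right of the line, while 10 of 16 SULT genes lie left of it, and the widest gap past the filter is that of Sult5a1, at 7.87 in the knockout-labelled and 7.36 in the wild-type pool.

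Most members were bright, and bright genes differ less between these arrays. Among genes with a mean level of at least 9.44, the lower quartile of the members past the filter and a level chosen after the values were seen, 3.46% of 1505 genes were at least 1.2-fold higher and 2.59% at least 1.2-fold lower. Of the 25 members at that level, 2 were as much higher (Gstm6 and Sult1d1) and 1 as much lower (Ugt2b38). Of these 25 members, 18 were above 0, where 64.2% of those 1505 genes were. Within 0.143 of 0 lay 75.3% of those 1505 genes, against 58.8% of the 34 members past the filter. The share among the 25 members alone was not computed.

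The GST genes lay mostly above 0, by small amounts. Their median was 0.09 over 18 genes, and the range ran from -0.14 to 0.35. Of the 18, 14 (77.8%) were above 0, against 59.5% of all genes past the filter. Without the level trend 12 of 18 were, against 50.9% of all genes. The mu class, cytosolic enzymes that conjugate epoxides and other electrophiles, held 7 of the 18. Each of the 7, by its brightest probe, was higher in the knockout-labelled pool, by 0.04 to 0.35 with a median of 0.19, and all 7 stayed above 0 when the arrays were brought to a common median and when the trend on level was removed. Gstm6 read 10.37 in the knockout-labelled and 10.03 in the wild-type pool, a difference of 0.35 or 1.27-fold. Gstm5 read 8.03 in the knockout-labelled and 7.73 in the wild-type pool, 1.23-fold. Gstm2 read 9.82 in the knockout-labelled and 9.57 in the wild-type pool, 1.19-fold.

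The other mu-class genes were closer to 0. Gstm1 read 11.52 in the knockout-labelled and 11.47 in the wild-type pool, a difference of 0.04. Gstm3 was read by 2 probes, the only member with more than 1. The brighter one gave 0.06 and the other -0.0026, so its direction is not settled. Gstm4 was at 0.19 and Gstm7 at 0.15. The 7 genes lie side by side on chromosome 3 with no other protein-coding gene between them, in the order Gstm5, Gstm7, Gstm6, Gstm3, Gstm2, Gstm1, Gstm4. Transcripts of such related genes can share array oligonucleotides, and whether these do was not tested.

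The theta class, ancient enzymes that act on halogenated solvents among other substrates, showed the same direction in its 3 bright genes. Gstt3 read 7.95 in the knockout-labelled and 7.66 in the wild-type pool, a difference of 0.29. Gstt1 read 9.55 in the knockout-labelled and 9.33 in the wild-type pool, a difference of 0.22, and Gstt2 read 9.85 in the knockout-labelled and 9.68 in the wild-type pool, a difference of 0.17. The fourth gene of this cluster on chromosome 10, Gstt4, was dim at 4.48 in the knockout-labelled and 4.78 in the wild-type pool and lay below the filter. Its difference was -0.30.

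The pi and alpha classes did not share that direction. Gstp1, the abundant male-biased pi enzyme of mouse liver, read 12.94 in the knockout-labelled and 13.02 in the wild-type pool, a difference of -0.08. Its neighbour Gstp3 read 7.91 in the knockout-labelled and 8.05 in the wild-type pool, a difference of -0.14. Gsta4, which clears the lipid aldehyde 4-hydroxynonenal, was at -0.12, with 9.84 in the knockout-labelled and 9.96 in the wild-type pool. These 3 remained below 0 at a common median and without the level trend. Gsta3, which detoxifies activated aflatoxin in mice, read 12.37 in the knockout-labelled and 12.36 in the wild-type pool, a difference of 0.0091, a value that turned to -0.01 without the level trend.

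The remaining GST genes were near 0. Mgst1, a membrane enzyme of the endoplasmic reticulum and mitochondria, read 13.12 in the knockout-labelled and 13.04 in the wild-type pool, a difference of 0.07. Gstk1, found in mitochondria and peroxisomes, was at 0.10 and Mgst3 at 0.01. Gsto1, which reduces dehydroascorbate, was at -0.0063, or 0.03 at a common median. Mgst2 and Gsto2 lay below the filter, at 0.09 and -0.06.

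**Figure D2:**
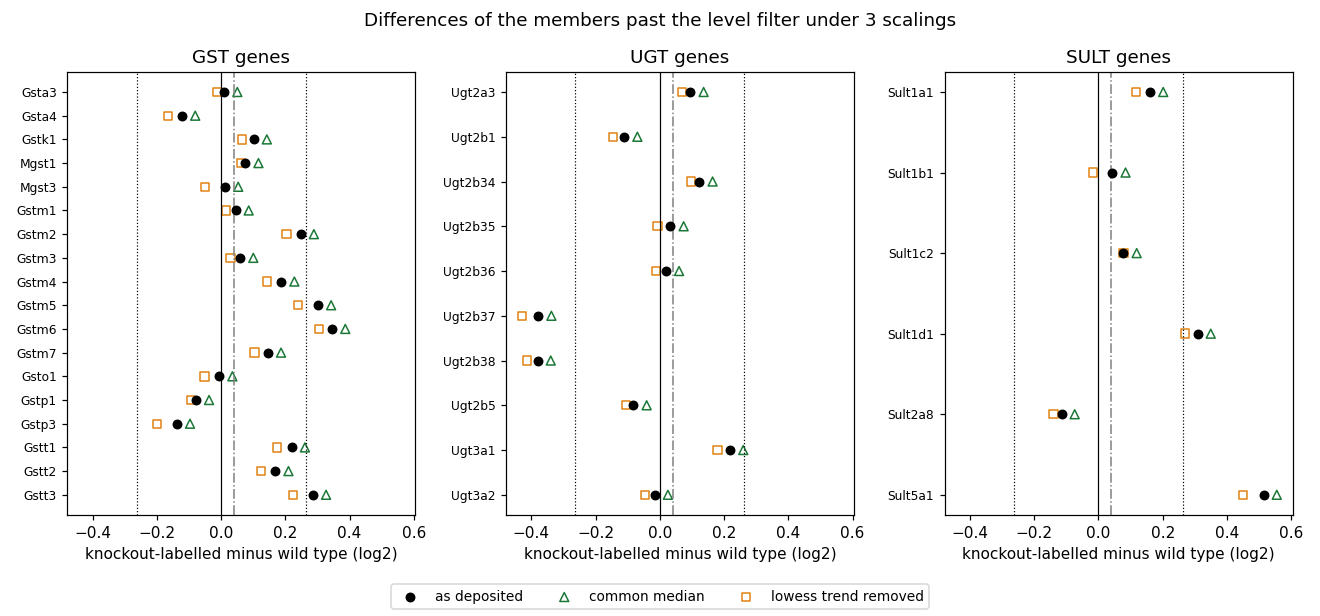
Difference in log2 level, knockout-labelled minus wild-type pool, for the 34 members past the level filter, as deposited (circles), at a common array median (triangles) and with the trend on level removed (squares). Dotted lines mark 1.2-fold, and the dash-dotted line marks the median of all genes past the filter, 0.04. Sult5a1 lies farthest right at 0.51 and Ugt2b38 and Ugt2b37 farthest left at -0.38, and the scaling moves members by less than 0.143.

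The UGT genes split, with 5 of 10 above 0 and a median of 0.00145 that became 0.04 at a common median and -0.03 without the level trend. Of all genes past the filter 59.5% were above 0. Without the level trend 3 of the 10 were above 0, against 50.9% of all genes. The lowest of the 34 members past the filter were Ugt2b38 and Ugt2b37, of a subfamily whose enzymes glucuronidate steroids, bile acids and drugs. Ugt2b38 read 10.84 in the knockout-labelled and 11.22 in the wild-type pool, a difference of -0.38 or 1.30-fold lower. Ugt2b37 read 8.64 in the knockout-labelled and 9.02 in the wild-type pool, likewise a difference of -0.38. Both differences lay between -0.43 and -0.34 under the scalings tried.

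Their relative Ugt2b5 was closer to 0. It read 11.99 in the knockout-labelled and 12.07 in the wild-type pool, a difference of -0.08. The 3 genes have closely similar promoters, and these are shown because nearly the same start region stands beside differences of unlike size. The windows run from 250 bases before to 50 bases after the RefSeq start in build GRCm38.p6, are read along the gene, and carry in capitals AGGTCA, the nuclear receptor core motif TGACCT as read on the other strand:
Ugt2b38, chr5:87424154-87424453, minus strand: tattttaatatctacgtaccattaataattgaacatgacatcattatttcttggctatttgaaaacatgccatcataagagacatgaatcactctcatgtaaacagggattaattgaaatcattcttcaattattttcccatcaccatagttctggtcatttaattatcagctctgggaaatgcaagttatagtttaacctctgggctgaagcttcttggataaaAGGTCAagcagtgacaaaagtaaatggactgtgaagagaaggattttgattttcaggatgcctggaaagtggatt
Ugt2b37, chr5:87254739-87255038, minus strand: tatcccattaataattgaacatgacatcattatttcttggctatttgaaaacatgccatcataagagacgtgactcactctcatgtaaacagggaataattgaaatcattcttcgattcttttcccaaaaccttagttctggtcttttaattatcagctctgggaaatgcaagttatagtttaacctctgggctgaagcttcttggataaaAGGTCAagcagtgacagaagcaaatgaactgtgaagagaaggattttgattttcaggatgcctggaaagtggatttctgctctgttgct
Ugt2b5, chr5:87140291-87140590, minus strand: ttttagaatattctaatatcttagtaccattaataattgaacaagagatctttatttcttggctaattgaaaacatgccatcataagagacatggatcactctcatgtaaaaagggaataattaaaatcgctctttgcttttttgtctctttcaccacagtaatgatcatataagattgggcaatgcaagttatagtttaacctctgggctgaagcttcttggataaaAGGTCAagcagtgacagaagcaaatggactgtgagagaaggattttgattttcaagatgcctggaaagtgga
In a global alignment, gaps counted as differences, the Ugt2b37 and Ugt2b38 windows were identical at 86.9% of positions, those of Ugt2b38 and Ugt2b5 at 84.2% and those of Ugt2b37 and Ugt2b5 at 76.2%. The motif begins at -25 in Ugt2b38, -39 in Ugt2b37 and -22 in Ugt2b5, within a run of letters that the 3 windows share, with positions counted from the start site and the last base before it as -1.

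The other Ugt2b genes lay on both sides of 0. Ugt2b34 read 11.81 in the knockout-labelled and 11.69 in the wild-type pool, a difference of 0.12. Ugt2b1 read 10.85 in the knockout-labelled and 10.96 in the wild-type pool, a difference of -0.11. Ugt2b35 and Ugt2b36 were at 0.03 and 0.02, and both turned below 0 without the level trend, at -0.0069 and -0.01. Ugt2a3, of a subfamily known in human for bile acid glucuronidation, read 11.90 in the knockout-labelled and 11.80 in the wild-type pool, a difference of 0.10. Across the 7 Ugt2b genes the median was -0.08 and 3 were above 0, against 59.5% of all genes past the filter. Without the level trend the median was -0.11 and 1 of the 7 was above 0, against 50.9% of all genes. Whether a Ugt2b probe also reads neighbouring transcripts was not tested, so the value of a single Ugt2b gene is uncertain.

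The Ugt3 enzymes, which in human use other sugar donors than UDP-glucuronate, were represented by neighbours on chromosome 15. Ugt3a1 read 10.44 in the knockout-labelled and 10.22 in the wild-type pool, a difference of 0.22. Ugt3a2 was at -0.02, or 0.03 at a common median. The Ugt1 family, which holds the bilirubin-conjugating enzyme, had no member, because its only probe here is annotated to several genes that share their last exons.

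**Figure D3:**
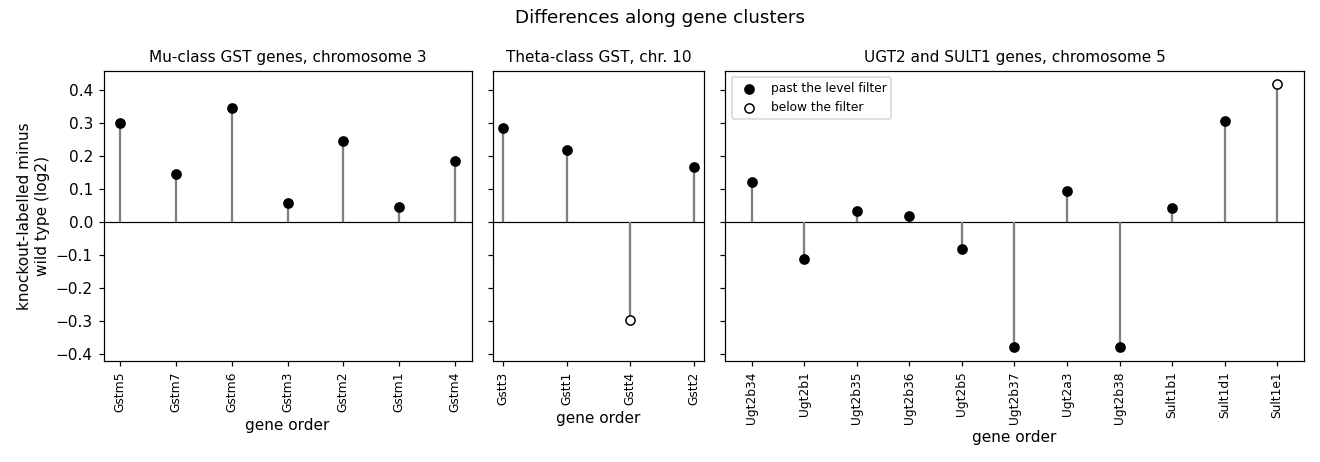
Difference in log2 level, knockout-labelled minus wild-type pool, for members in the order in which they lie in 3 gene clusters, spaced evenly; open points lie below the level filter. The 7 mu-class genes of chromosome 3, each by its brightest probe, all lie above 0. Gstm3 has a second probe, not drawn, at -0.0026. On chromosome 5 Ugt2b37 and Ugt2b38, separated by Ugt2a3 at 0.10, lie at -0.38 and Sult1d1 lies at 0.31.

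The SULT genes held the largest difference and the most dim probes. Past the filter 5 of 6 were above 0, against 59.5% of all genes, and 4 of 6 without the level trend, against 50.9%. The median was 0.12 past the filter, and over all 16 genes it was 0.06. Sult5a1, a sulfotransferase with no well-known substrate, read 7.87 in the knockout-labelled and 7.36 in the wild-type pool, a difference of 0.51 or 1.43-fold. It was 0.56 at a common median and 0.45 without the level trend. Sult1d1, which sulfates catecholamines and related amines in mice, read 10.54 in the knockout-labelled and 10.24 in the wild-type pool, a difference of 0.31 or 1.24-fold.

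Sult1d1 shares a stretch of chromosome 5 with the Ugt2 genes. In it 11 members follow each other, 8 Ugt2 genes and then Sult1b1, Sult1d1 and Sult1e1, with 2 other protein-coding genes between Ugt2b38 and Sult1b1. The differences of the 10 bright members of that stretch ran from -0.38 to 0.31. The promoter of Sult1d1 is shown as that of the gene with the largest positive difference past the filter in this stretch, and of the 6 members of the Sult1 subfamily it alone held the searched part of an HNF1 site. Capitals mark GTTAATAAT for HNF1 and CACGC for the Ah receptor core read on the other strand. Also in capitals is TTTATA, the TATA box letters on the other strand, which begin after the start:
Sult1d1, chr5:87568957-87569256, minus strand: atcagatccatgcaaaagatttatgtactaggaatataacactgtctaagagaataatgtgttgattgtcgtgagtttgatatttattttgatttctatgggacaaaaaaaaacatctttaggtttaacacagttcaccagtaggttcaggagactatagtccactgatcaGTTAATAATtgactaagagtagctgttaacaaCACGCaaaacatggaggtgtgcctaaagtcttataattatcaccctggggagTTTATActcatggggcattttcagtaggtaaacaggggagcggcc

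The other bright SULT genes were closer to 0. Sult1a1, the main phenol sulfotransferase, read 9.999 in the knockout-labelled and 9.84 in the wild-type pool, a difference of 0.16. Sult1b1, which sulfates thyroid hormones, was at 0.04 and turned to -0.02 without the level trend. Sult1c2 was at 0.08. Sult2a8, a liver enzyme that sulfates bile acids in mice, read 11.86 in the knockout-labelled and 11.98 in the wild-type pool, a difference of -0.12.

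The 10 dim SULT genes had mean levels from 2.61 to 4.90. They include Sult3a1, Sult3a2, Sult2a3 and Sult2a6, of subfamilies known as female-biased in mouse liver, and Sult1e1, the estrogen sulfotransferase. Sult1e1 read 3.47 in the knockout-labelled and 3.05 in the wild-type pool, and Sult1c1 read 3.32 in the knockout-labelled and 3.82 in the wild-type pool. Their differences, 0.42 and -0.50, span the range of the dim members, and the table carries no detection call by which such levels could be told from background. With no level filter 7 of the 47 members were at least 1.2-fold higher, where 9.22% of all 19938 genes were, and 5 were at least 1.2-fold lower, where 9.63% were.

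Promoter windows were searched for 6 short motifs on both strands, in 54 windows of 43 of the 47 members against all 32851 windows of the RefSeq table. A match is only a run of letters. The core of the antioxidant response element through which NRF2 acts, TGACNNNGC, was in 4 of 54 windows (7.41%), against 12.4% of all windows. These 4 belong to Gsta3, Gstm5, Gstm7 and Mgst1. The Ah receptor core GCGTG was in 10 windows (18.5%), against 32.4% of all. Windows of a gene can overlap, and the 2 windows of Gstm1 among these 10 hold the same site. The nuclear receptor core TGACCT was in 10 (18.5%), against 16.3%, and 5 of these were among the 7 Ugt2b windows. The letters GTTAATNAT of the HNF1 site were in 3 (5.56%), against 0.801%, namely Sult1d1, Sult2a3 and Sult2a6. The TATA box TATAAA was in 12 (22.2%), against 13.6%, and the STAT core TTCNNNGAA in 4 (7.41%), against 8.30%. Sult5a1 held none of the 6.

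The window of Gstm5 is shown as the only mu-class window with both the antioxidant response element and Ah receptor cores. In capitals are TGACCACGC, in which the element core overlaps CACGC, the Ah receptor core on the other strand, a further CACGC upstream, and TATAAA after the start:
Gstm5, chr3:107895604-107895903, plus strand: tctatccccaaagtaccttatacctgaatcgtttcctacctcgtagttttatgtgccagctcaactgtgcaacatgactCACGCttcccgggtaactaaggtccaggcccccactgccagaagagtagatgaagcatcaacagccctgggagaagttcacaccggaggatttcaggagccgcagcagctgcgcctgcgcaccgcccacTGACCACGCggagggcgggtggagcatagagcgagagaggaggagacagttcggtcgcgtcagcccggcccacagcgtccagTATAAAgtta

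Genes that supply, regulate or follow conjugation were read from 7 lists. Regulators of these genes had a median of 0.14, and 21 of 22 were above 0, where 59.5% of all genes past the filter were. Without the level trend 16 of 22 were above 0, where 50.9% of all genes were. PXR (Nr1i2) read 8.97 in the knockout-labelled and 8.75 in the wild-type pool, a difference of 0.23. CAR (Nr1i3) was at 0.18, NRF2 (Nfe2l2) at 0.17 and the Ah receptor (Ahr) at 0.03, or -0.02 without the level trend. The list mixes activators and repressors, and Keap1 and Bach1, which oppose NRF2, were at 0.18 and 0.02. The bZIP factor Cebpb was highest at 0.37 and Stat5b, which relays growth hormone signals, lowest at -0.19.

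Cofactor supply was mixed, where 59.5% of all genes past the filter were above 0. UDP-glucuronate supply genes had a median of 0.12 with 6 of 9 above 0, or -0.047 over the 5 genes with a mean level of at least 9.44. The 9 genes ran from Hk1, a hexokinase, at -0.30 to Slc35d1, the transporter that carries UDP-glucuronate into the endoplasmic reticulum, at 0.23. Counted among the 9 was Uxs1, an enzyme that uses UDP-glucuronate, at 0.19. PAPS and sulfate supply genes also had a median of 0.12, with 8 of 13 above 0, from the sulfate transporter Slc26a2 at -0.20 to Mpst, a sulfurtransferase, at 0.33. Glutathione synthesis and recycling genes had a median of 0.0098, or -0.02 without the level trend, with 8 of 15 above 0. Among them glutathione synthetase Gss was at -0.23 and Cth, which makes cysteine, at 0.25.

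**Figure D4:**
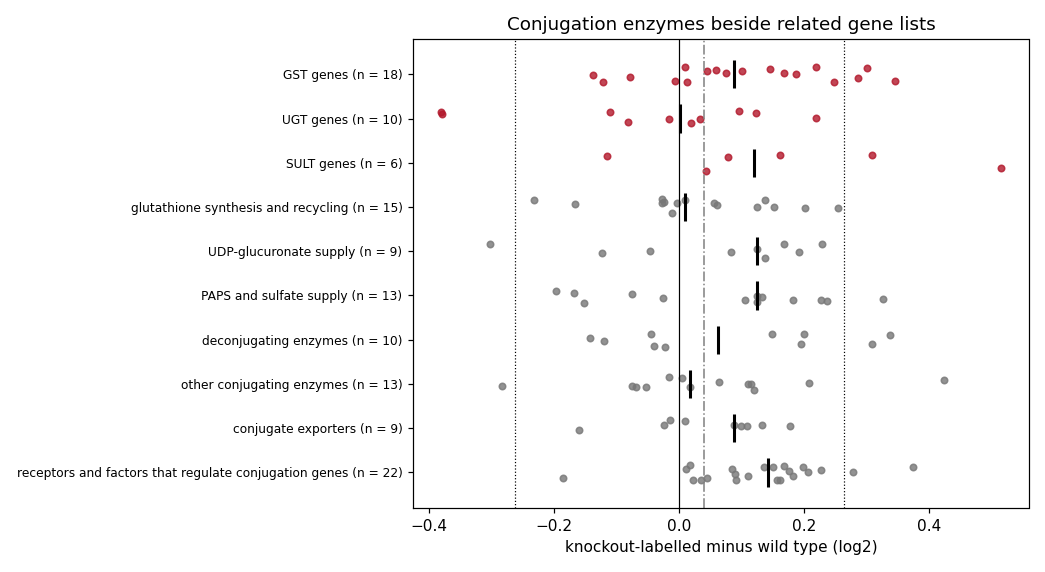
Difference in log2 level, knockout-labelled minus wild-type pool, for each gene past the level filter in the GST, UGT and SULT groups (red) and in 7 related lists (grey); black bars are medians, dotted lines 1.2-fold and the dash-dotted line the median of all genes, 0.04; vertical scatter is only for legibility. The medians run from 0.00145 for UGT genes to 0.14 for the regulators.

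Conjugate exporters, the pumps that carry conjugates and other compounds out of the cell, had a median of 0.09 with 6 of 9 above 0, or 0.0093 over 11 genes with no level filter. They ran from Abcc4 at -0.16 to Abcb1a at 0.18. Deconjugating enzymes had a median of 0.06, or -0.02 if the filter was raised to the 60th percentile, with 5 of 10 above 0. Counted among the 10 was Nat8, an N-acetyltransferase rather than a deconjugating enzyme, at 0.20. The 10 also held the sulfatases Arsa, Arsb, Arsg and Ids and the carboxylesterases Ces1d and Ces2a. Whether these act on the conjugates described here was not tested. The steroid sulfatase gene Sts was listed but not measured. The sulfatase Arsg was at -0.14 and the aminoacylase Acy3, which acts on mercapturic acids, at 0.34. A list of other enzymes of conjugation, which also held the zeta-class GST gene Gstz1 at 0.02, had 8 of 13 above 0. Its median was 0.02, or -0.02 without the level trend. Nnmt, which methylates nicotinamide, was at 0.42, and Baat, which joins bile acids to taurine, at -0.28. Without the level trend, which brought the median of all genes to 0.0039, the medians were 0.09 for regulators, 0.09 for UDP-glucuronate supply, 0.07 for PAPS and sulfate supply, 0.05 for exporters and 0.02 for deconjugating enzymes. Of these 7 lists 0 genes past the filter reached 1.5-fold, where 0.621% of all genes were as much higher and 0.335% as much lower. Below the filter, Chst1 read 3.93 in the knockout-labelled and 5.08 in the wild-type pool, a difference of -1.14. Cytochromes P450 of families 1 to 3, which often act before conjugation, had a median of 0.02 over 37 of 53 genes past the filter. Of the 37, 20 (54.1%) were above 0, against 59.5% of all genes. At least 1.2-fold higher were 2, against 8.66% of all genes, and at least 1.2-fold lower were 3, against 6.16%. Of the 2 higher ones 1 was past 1.5-fold, at 0.66, where 0.621% of all genes were at least 1.5-fold higher. Whether the conjugation genes differ from these P450 genes was not tested.

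Markers of other cells were read beside these values, since in whole liver fewer cells of a type and less RNA per cell cannot be told apart. The 9 markers of Kupffer cells and other macrophages lay lower, at a median of -0.28. Of the 9, 0 were above 0, against 59.5% of all genes past the filter, and 6 were at least 1.2-fold lower, against 6.16%. The summed level of the 9 was 11.36 in the knockout-labelled and 11.59 in the wild-type pool on the log2 scale. Sinusoidal endothelial markers had a median of 0.13 with 7 of 8 above 0, and hepatocyte markers 0.01 with 5 of 9 above 0. Bile duct markers had a median of 0.15 with 2 of 3 past the filter above 0. These 3 were Krt19 at 0.27, Krt7 at 0.15 and Sox9 at -0.11. Krt19 read 5.62 in the knockout-labelled and 5.35 in the wild-type pool, the latter below the filter level of 5.44. Stellate cell markers had a median of 0.001 with 4 of 7 above 0, and lymphocyte markers -0.14 with 0 of 3. Of the red blood cell and exocrine pancreas markers 1 of 2 each were above 0, at medians of 0.08 in both lists. Of the gall bladder and intestine markers 1 of 5 passed the filter, at -0.17, and of the kidney markers 0 of 4 did. The part of any of these cells in the conjugation values was not tested.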

How the data were processed

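Liver RNA of 2 pools, each of 3 mice, was measured from 300 ng on 1 array each. The authors deposited 1 normalized log2 value per probe, with RMA, Affymetrix Expression Console 1.0 and Partek 6.4 listed, without order or role, per the submitters' processing notes. RMA compresses differences of dim transcripts and hides a change in total RNA. The genome build is not given in the sources used here.

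Of 28853 probes, 21789 had 1 gene symbol in the platform annotation, 1621 several and 5443 none. A gene was its probe with the highest mean, and all 47 members matched the RefSeq table of GRCm38.p6, used for names, gene order and promoters. Differences, medians and counts were computed in Python 3.11.15 with pandas 2.3.3 and statsmodels 0.14.6 and tested on simulated data. With 1 array per group no test was made, and precision is limited by the array number. Alternatives were a common array median, lowess removal of the trend on level (span 0.3), no filter, a filter at the 60th percentile and the mean over probes. A filter at the members' lower quartile of level was added after seeing the data. A comparison of protein sequences was not made. Members, lists and thresholds were chosen with earlier results of these data known. Genes named with values are, in each class, the 4 brightest and the 4 most positive and 4 most negative past the filter, any member past 1.5-fold without a filter (0 here), the extremes of each list, members whose probes disagree in sign, and Fhl2, Nr1i2, Nr1i3, Nfe2l2 and Ahr. Other members, listed genes and markers were named for their place, role or class, and Chst1 for a difference past 1.5-fold below the filter.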

Additional observations from a re-analysis of the deposited data

How the results depend on the processing

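No paired analysis was possible because each group holds 1 array, and for the same reason no array could be left out. The counts of 0 members past 1.5-fold, higher or lower, held under the 6 alternatives, and so did the medians of the GST and SULT genes in sign. Members at least 1.2-fold higher numbered 5, against 3 without the level trend and 2 among the 25 members at or above the lower quartile of level. Members at least 1.2-fold lower numbered 2, against 5 of 47 with no filter, where 9.63% of all genes were as much lower, and 1 among those 25. The filters change how many genes are counted. The median of the UDP-glucuronate supply genes, 0.12, became -0.047 over the 5 genes at or above that quartile. Of the 34 members, 2 turned sign at a common median and 5 without the level trend, each of them within 0.143 of 0 as deposited. The 46 genes named by rule each moved by less than 0.143 under both scalings and the mean over probes. Signal over background is unknown, which limits the 13 dim members most.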

Other observations

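Probes annotated to several genes of these families were left out of the counts and numbered 12. Their differences ran from -0.13 to 0.26. The 4 probes shared by alpha-class GST genes and 2 gene models read 8.79 to 9.07 in the knockout-labelled and 8.74 to 9.002 in the wild-type pool, and differed by 0.05 to 0.07. The 2 probes shared by pi-class genes were both at -0.02. The single probe of the Ugt1 family read 9.07 in the knockout-labelled and 8.93 in the wild-type pool, a difference of 0.14. The 2 probes shared by Ugt3 genes were at 0.06 and 0.07, while the probes of single Ugt3 genes were at 0.22 and -0.02. A further Ugt2a probe was dim, at 3.84 in the knockout-labelled and 3.58 in the wild-type pool, and so were 2 Sult2 probes, at 3.24 and 3.58 in the knockout-labelled and 3.09 and 3.71 in the wild-type pool.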
